A study of Rattus norvegicus with 47 samples.

Results

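Krüppel-like factors (KLFs) are zinc finger transcription factors, and 7 of them, Klf3, Klf4, Klf6, Klf7, Klf10, Klf12 and Klf13, are described here in rat blood over the first day post middle cerebral artery (MCA) occlusion. The members were chosen by gene symbol in the table of the array data, and each was represented by the probe set with the highest mean of the 6 time point means. They are 7 of the 20935 gene symbols on the array, and each had 1 probe set. The animals were 8 male SHR, a hypertensive inbred strain, aged 16 weeks, in which a thread closed the MCA and was withdrawn under anesthesia between the 1 h and 2 h samples, so that the occlusion was transient. Blood cell pellets gave 8 arrays each at 0, 1, 2, 3 and 24 h and 7 arrays at 6 h, since rat 3 had no 6 h sample. The 0 h samples were drawn before anesthesia and are the only baseline, because the design has no sham-operated rats, so an effect of occlusion cannot be told apart from those of anesthesia, surgery, repeated blood draws or time of day. The 24 h samples came from the heart after an overdose of anesthetic and all others from a tail vein, so the site of the draw cannot be told apart from 24 h. The whole pellet was used with no sorting of cells, and in such bulk samples fewer cells of a type and less RNA per cell cannot be told apart.

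KLF proteins bind GC-rich DNA and CACCC boxes with zinc fingers at their carboxyl end, and differ in the cofactors that the rest of the protein recruits. Klf4, Klf6 and Klf7 are best known as activators, with Klf4 a factor of monocyte differentiation and of restrained lymphocyte proliferation. Klf3 and Klf12 are repressors that recruit CtBP, and Klf10 and Klf13 repress through Sin3A. In blood, KLFs are known for the quiescence and trafficking of lymphocytes and for the maturation of erythroid and myeloid cells.

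The probe sets lie on 7 chromosomes in the rn5 build of the array annotation. That of Klf3 spans chr14:44956010-44970027, that of Klf4 chr5:76447638-76452394 and that of Klf6 chr17:69616967-69674030. The probe set of Klf10 spans chr7:77258858-77265321, that of Klf12 chr15:88096812-88377015 and that of Klf13 chr1:125883322-125926886, all on the minus strand. The Klf7 probe set spans chr9:71787155-71832186 and is listed on the plus strand, whereas the RefSeq table on the GRCr8 build lists Klf7 on the minus strand. Within 2 Mb of it, 22 of 23 genes differed in strand between both builds.

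Promoter sequences, from 250 bases before to 50 after a start site, were taken from RefSeq on GRCr8 for 5 of the 7 members, Klf3, Klf4, Klf6, Klf7 and Klf12. Klf10 and Klf13 are named only. The 5 sequences were searched on both strands for the CACCC box of the KLF family itself, for the cyclic AMP response element TGACGTCA and for the AP-1 site TGANTCA. None of these motifs holds another within its letters, although matches can share letters at their ends. A CACCC box was found in 2 of the 5 members, Klf3 and Klf7, and in 6 of 7 other KLF genes with a window, against 54.9% of all 33469 windows of that length. Neither TGACGTCA, held by 1.83% of all windows, nor TGANTCA, held by 7.33%, was found in the 5 members. Stretches of 30 bases are shown for Klf3 (GRCr8, chr14:43850858-43850887, minus strand), with 2 of the 4 CACCC boxes in its window, and for Klf7 (GRCr8, chr9:73020146-73020175, minus strand), with both of its boxes, because these were the members with a box in the window. Capitals mark the box, here on the opposite strand and so read as GGGTG. The Klf6 stretch (GRCr8, chr17:69458479-69458728, minus strand) is the 250 bases before the start site, shown as the only member of the 5 whose start site in the table lies at the annotated edge of its gene. It has no capitals, as it holds none of the motifs. A match is a description and not a binding site, and no match says only that the letters are not in the window.
Klf3: tccatgGGGTGgagccgatGGGTGgaggca
Klf7: tggGGGTGgggagggaagggaagGGGTGgg
Klf6: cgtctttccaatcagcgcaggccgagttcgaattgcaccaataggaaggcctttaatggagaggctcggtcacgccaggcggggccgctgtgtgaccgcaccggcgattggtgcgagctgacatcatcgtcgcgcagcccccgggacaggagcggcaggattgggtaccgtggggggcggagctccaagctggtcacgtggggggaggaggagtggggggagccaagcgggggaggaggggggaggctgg

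Levels are the authors' means of the log2 RMA signal over the arrays of a time point, with the authors' SD, and a change is a difference of such means on the log2 scale. Levels of different probe sets cannot be set against each other. Over all 27596 probe sets the median SD was 0.14 to 0.16 at the 6 time points, and the median change from 0 h was 0.04 to 0.07. Each change was tested with limma's moderated variance, taken over the authors' means and SDs and the number of arrays, at a Benjamini-Hochberg FDR below 0.05 over all probe sets. The arrays were taken as independent although each rat was sampled repeatedly, and the 5 changes from 0 h share the same 0 h arrays. For the 5 later time points in order, the members' median change was 0.03, 0.21, 0.20, 0.14 and 0.17.

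Klf4 and Klf12 fell at every later time point, whereas Klf6 and Klf7 rose at every one, Klf10 rose from 2 h on, and Klf13 rose at 2 and 3 h and was below its 0 h level at 24 h. Klf3 changed least. All 7 members varied over the 6 time points by the F-test at an FDR below 0.05, as did 55.5% of all probe sets. At an unadjusted p below 5e-07, the stricter threshold, 6 of the 7 remained, all but Klf3, against 13.5% of all probe sets. Of the 10 other KLF genes on the array, 9 passed at an FDR below 0.05 and 2, Klf5 and Klf11, at the stricter threshold. Counted over the 5 changes from 0 h, 29 of the members' 35 tests passed, against 39.4% of these tests over all probe sets. The members were chosen with earlier results of these data known, and all probe sets include dim ones. These shares therefore describe the list and are no test of it.

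**Figure D1:**
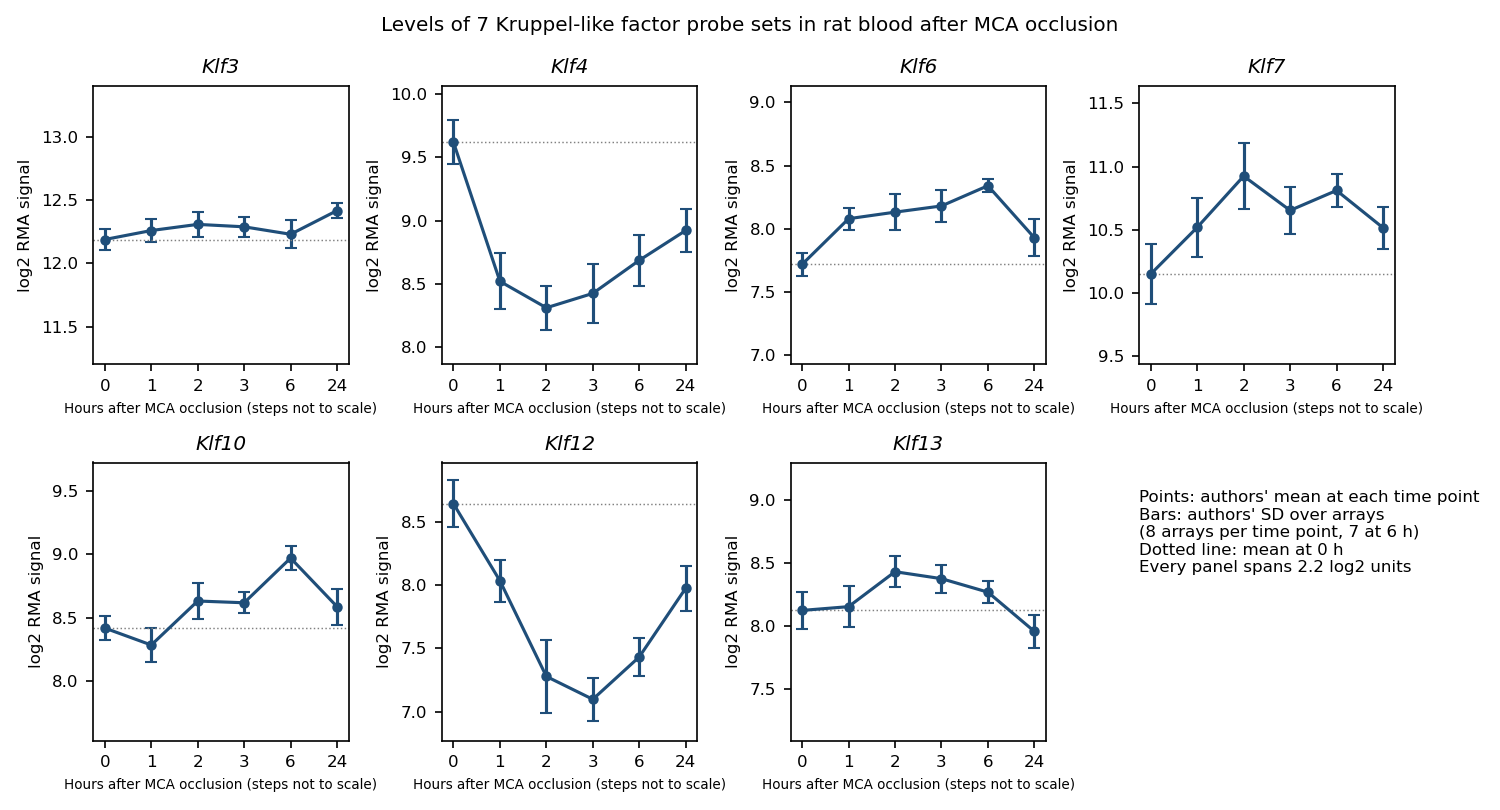
The authors' mean log2 RMA signal (y axis) of the 7 genes at 0, 1, 2, 3, 6 and 24 h post MCA occlusion (x axis, steps not to scale), with bars for the authors' SD over 8 arrays, or 7 at 6 h. Every panel spans the same log2 range: the deep troughs of Klf4 and Klf12 between 2 and 3 h stand beside the nearly flat course of Klf3, and the 0 h level is dotted.

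Among the activators, Klf4 had the larger and faster change. The 6 means were 9.62 ± 0.17, 8.52 ± 0.22, 8.31 ± 0.18, 8.42 ± 0.24, 8.69 ± 0.20 and 8.92 ± 0.17, in the order of 0, 1, 2, 3, 6 and 24 h (± SD; n = 8, but 7 at 6 h, here and for the other genes). At all 5 later time points the range of 1 SD around the mean lay below that of 0 h. The fall was 2.14-fold at 1 h (95% interval 1.87 to 2.45; FDR 1.39e-12) and 2.48-fold at 2 h (2.17 to 2.83; FDR 1.12e-15), its lowest point. The mean at 24 h was still 1.62-fold below 0 h (FDR 3.26e-07), so that 53.3% of the largest log2 change was left. In order of level, 2, 3, 1 and 6 h were neighbours that differed by less than their SD, while 24 h stood above 6 h, and 0 h above 24 h, by more than it. None of the steps between neighbouring time points after 1 h passed the test for Klf4, the nearest being the rise from 6 to 24 h of 0.24 (FDR 0.0942).

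Klf6, an early response factor of injured and inflamed tissue, rose to a later maximum. Its means from 0 to 24 h were 7.72 ± 0.09, 8.08 ± 0.09, 8.13 ± 0.14, 8.18 ± 0.13, 8.34 ± 0.05 and 7.93 ± 0.15. The SD ranges of 1, 2, 3 and 6 h lay above that of 0 h, and that of 24 h overlapped it. It was 1.28-fold higher at 1 h (FDR 5.02e-06) and 1.54-fold higher at 6 h (95% interval 1.41 to 1.68; FDR 9.45e-12), then fell 1.33-fold from 6 to 24 h (FDR 9.03e-07). A rise of 0.21 over 0 h remained at 24 h (FDR 0.00573), 33.9% of that at 6 h. The levels at 1, 2 and 3 h did not differ beyond their SD.

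Klf7, a widely expressed relative of Klf6, rose in steps. In the same order of times, Klf7 measured 10.15 ± 0.24, 10.52 ± 0.23, 10.93 ± 0.26, 10.65 ± 0.18, 10.81 ± 0.13 and 10.52 ± 0.17. Its SD at 0 h was the widest of the 7 members at that time point, and only at 2, 3 and 6 h was the SD range clear of that of 0 h. The gene was 1.29-fold higher at 1 h (FDR 0.00370) and 1.71-fold higher at 2 h (95% interval 1.49 to 1.97; FDR 1.75e-08), with a rise of 0.41 between 1 and 2 h alone (FDR 0.00575). From 6 to 24 h it fell by 0.29 (FDR 0.0399). In rising order of level, 24, 1, 3, 6 and 2 h were each within the SD of the next. Both steps between neighbours missed the threshold under 1 alternative each, that from 1 to 2 h with the variance of the compared time points only (FDR 0.0664) and that from 6 to 24 h after quantile normalization of the means (FDR 0.0753).

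**Figure D2:**
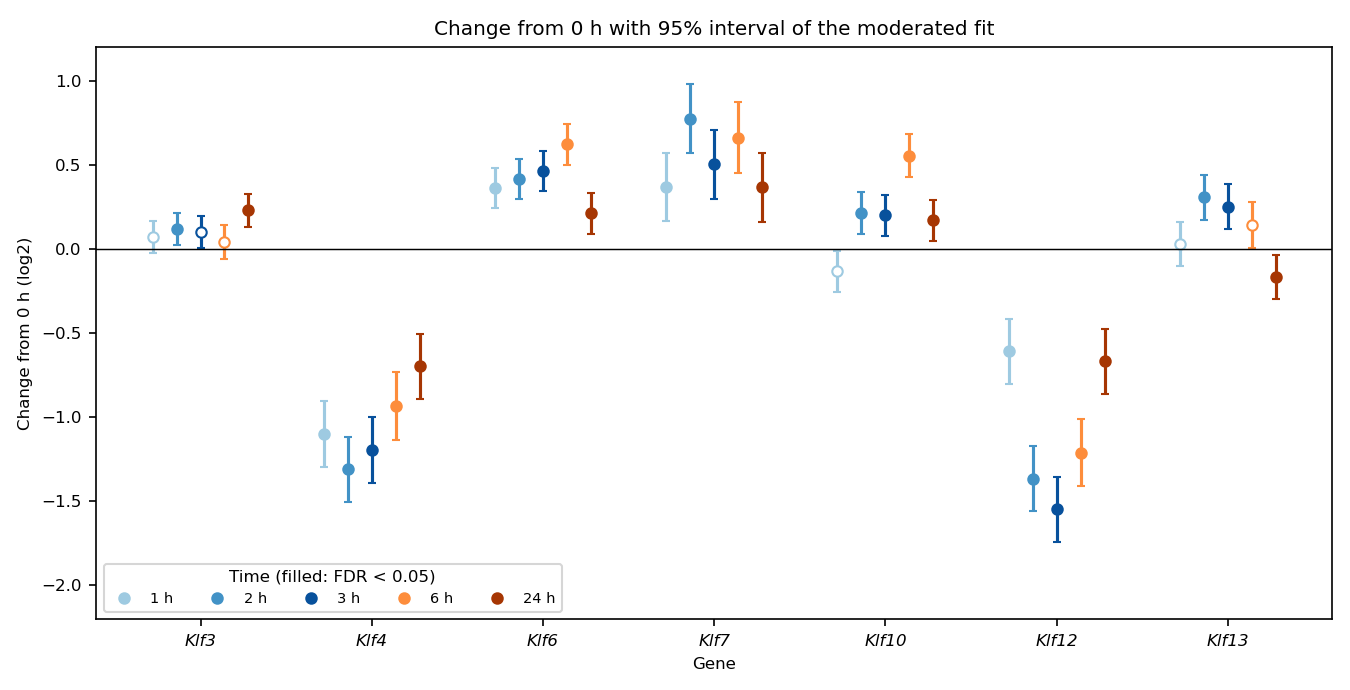
Change from 0 h on the log2 scale (y axis) of the 7 genes (x axis) at 1, 2, 3, 6 and 24 h (colours, left to right), with bars for the 95% interval of the moderated fit; filled points passed an FDR below 0.05. Klf4 and Klf12 lie below 0 at all 5 time points and Klf6 and Klf7 above it, while Klf10 and Klf13 cross it.

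The CtBP-recruiting repressors Klf12 and Klf3 took very unequal courses. Klf12, named for its repression of AP-2 genes, had means of 8.64 ± 0.18, 8.03 ± 0.17, 7.28 ± 0.29, 7.10 ± 0.17, 7.43 ± 0.15 and 7.98 ± 0.18 over the 6 time points. Every later SD range lay below that of 0 h. Its fall was 1.53-fold at 1 h (FDR 2.33e-06), 2.58-fold at 2 h (FDR 2.26e-16) and 2.92-fold at 3 h (95% interval 2.56 to 3.34; FDR 3.33e-18), the largest change of any member.

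Klf12 fell further by 0.76 between 1 and 2 h (FDR 2.83e-07). The same step of Klf4 was -0.21 (FDR 0.191), and the difference between these genes was not tested. It then rose by 0.34 from 3 to 6 h (FDR 0.0370) and by 0.54 from 6 to 24 h (FDR 3.75e-05), and 43.2% of the largest change was left at 24 h. The rise from 3 to 6 h missed the threshold with the variance of the compared time points only (FDR 0.0786). In order of level, 3, 2 and 6 h were neighbours within their SD, as were 24 and 1 h.

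Klf3, a repressor best known from erythroid cells and B lymphocytes, had the means 12.19 ± 0.08, 12.26 ± 0.09, 12.31 ± 0.10, 12.29 ± 0.08, 12.23 ± 0.11 and 12.42 ± 0.06 from first to last time point. Only the 24 h range was clear of that of 0 h, and the 5 lower levels were neighbours within their SD. The gene was 1.17-fold higher at 24 h than at 0 h (95% interval 1.10 to 1.25; FDR 2.91e-04), a change of 0.23. It was also higher at 24 than at 6 h by 0.19 (FDR 0.00448), but not after quantile normalization of the means (FDR 0.0689). The rise at 2 h was 0.12 (FDR 0.0423) and was lost under 4 of the alternatives, with FDRs of 0.0525 to 0.268. Without the 24 h samples, which were drawn from the heart, the F-test of Klf3 missed the threshold (FDR 0.217).

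The Sin3A-recruiting repressors Klf10 and Klf13 did not move before 2 h by the test. Klf10, first found as a gene induced by TGF-beta, had means of 8.42 ± 0.10, 8.28 ± 0.13, 8.63 ± 0.14, 8.62 ± 0.08, 8.97 ± 0.10 and 8.59 ± 0.14 from 0 to 24 h. The change at 1 h of -0.13 had an FDR of 0.0777, and passed the threshold only after the means were centred on their median (FDR 0.0180). Klf10 rose by 0.35 from 1 to 2 h (FDR 8.16e-05) and again by 0.35 from 3 to 6 h (FDR 2.39e-04), with 24, 3 and 2 h neighbours within their SD. At 6 h it was 1.47-fold above 0 h (95% interval 1.34 to 1.60; FDR 5.37e-10). It fell by 0.38 from 6 to 24 h (FDR 6.04e-06), and the 0.17 left at 24 h (FDR 0.0298) missed the threshold with the variance of the compared time points only (FDR 0.0564) and after centring (FDR 0.115).

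Klf13, known for its part in late expression of the chemokine Ccl5 in T lymphocytes, had a maximum at 2 h. Over the time course the means of Klf13 were 8.13 ± 0.15, 8.16 ± 0.16, 8.43 ± 0.12, 8.38 ± 0.11, 8.27 ± 0.09 and 7.96 ± 0.13. Only the 2 h range was clear of that of 0 h, while 0, 1, 6, 3 and 2 h, in rising order of level, were neighbours within their SD. It was 1.24-fold higher at 2 h (95% interval 1.13 to 1.36; FDR 1.85e-04) and 1.19-fold higher at 3 h (FDR 0.00173). From 6 to 24 h it fell by 0.31 (FDR 5.50e-04), to 0.17 below 0 h (FDR 0.0491). This last change lost its call with an intensity trend and robust prior (FDR 0.0560), with the variance of the compared time points only (FDR 0.0915) and after quantile normalization of the means (FDR 0.494).

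Taken by time point, the members' calls stood beside those of all probe sets as follows. At 1 h, 2 of the 7 rose (Klf6 and Klf7) and 2 fell (Klf4 and Klf12), against 21.7% and 15.4% of all probe sets. At 2 h, 5 rose and 2 fell, against 21.7% and 18.6%. This was the first of the 2 time points at which every member passed. At 3 h, 4 rose and 2 fell, against 27.3% and 19.2%, with Klf3 not passing (0.10, FDR 0.0809). The balance of higher and lower calls over all probe sets depended on the scaling, since after centring of the means on their median the higher share of the calls went from 58.6% to 40.0% at 1 h and from 58.7% to 47.2% at 3 h.

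Later, at 6 h, 3 rose (Klf6, Klf7 and Klf10) and 2 fell, against 22.5% and 19.3% of all probe sets. Klf13, at 0.14 above 0 h at 6 h, did not pass in the fit used here but did after quantile normalization of the means (0.26, FDR 0.00172). At 24 h, 4 rose (Klf3, Klf6, Klf7 and Klf10) and 3 fell (Klf4, Klf12 and Klf13), against 17.4% and 13.9%, where centring took the higher share of all calls from 55.6% to 37.3%. With 7 members, these shares describe the list and call nothing particular to it.

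The step from 0 to 1 h is the 1 h change above, and the later steps between neighbouring time points were tested in their own right. From 1 to 2 h, Klf7, Klf10 and Klf13 rose and Klf12 fell, 3 and 1 of 7 against 4.66% and 4.11% of all probe sets, with 53.1% of the calls higher as deposited and 64.4% after centring. From 2 to 3 h no member passed by limma's moderated test or under any of the alternatives run, against 3.53% of all probe sets in either direction, and 1 of 7, Klf7, had an unadjusted p below 0.05. From 3 to 6 h, 2 rose, Klf10 and Klf12, against 2.34%. From 6 to 24 h, 2 rose (Klf3 and Klf12) and 4 fell (Klf6, Klf7, Klf10 and Klf13), against 10.2% and 8.68%.

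Of 11 other KLF genes listed, 10 were on the array, each read from 1 probe set or the one with the highest mean. Klf5, an activator known from epithelial and myeloid progenitor cells, rose more than any of the 7 members. From 0 to 24 h it measured 6.55 ± 0.20, 7.16 ± 0.16, 7.81 ± 0.20, 7.94 ± 0.23, 8.28 ± 0.31 and 7.11 ± 0.25. Its rise reached 3.34-fold at 6 h (95% interval 2.85 to 3.90; FDR 1.37e-17), the time point at which Klf6 and Klf10 were also highest, and it fell 2.25-fold from 6 to 24 h (FDR 1.82e-11).

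The remaining 9 moved by 0.41 or less in size. Klf11, like Klf10 a TGF-beta-inducible Sin3A repressor, rose from 3 h on, by 0.25, 0.29 and in the end 0.41 (FDR 6.38e-06). Klf9, a target of glucocorticoids, rose by 0.27 at 1 h (FDR 0.0426), and then fell by 0.35 at 6 h and 0.39 at 24 h. Klf2, which keeps naive T cells in circulation through S1pr1, passed only at 6 h, with a rise of 0.34 (FDR 0.00376). Klf14 rose at all 5 time points, by 0.16 to 0.27, whereas Klf17 passed at none.

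Counted over the 5 later time points, 6, 4, 5, 6 and 6 of the 10 rose, and only Klf9 fell, at 6 and 24 h. In the same order, 21.7%, 21.7%, 27.3%, 22.5% and 17.4% of all probe sets rose. The median of the 10 changes lay between 0.14 and 0.26 at the 5 time points. Of their 29 calls against 0 h, 9 were lost after centring of the means and 4 after quantile normalization, none with a change of sign. Klf4 and Klf12 were thus the only KLF genes of the 17 on the array called below 0 h at 1, 2 or 3 h in this fit, although after centring of the means Klf2 and Klf10 also passed as lower at 1 h.

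**Figure D3:**
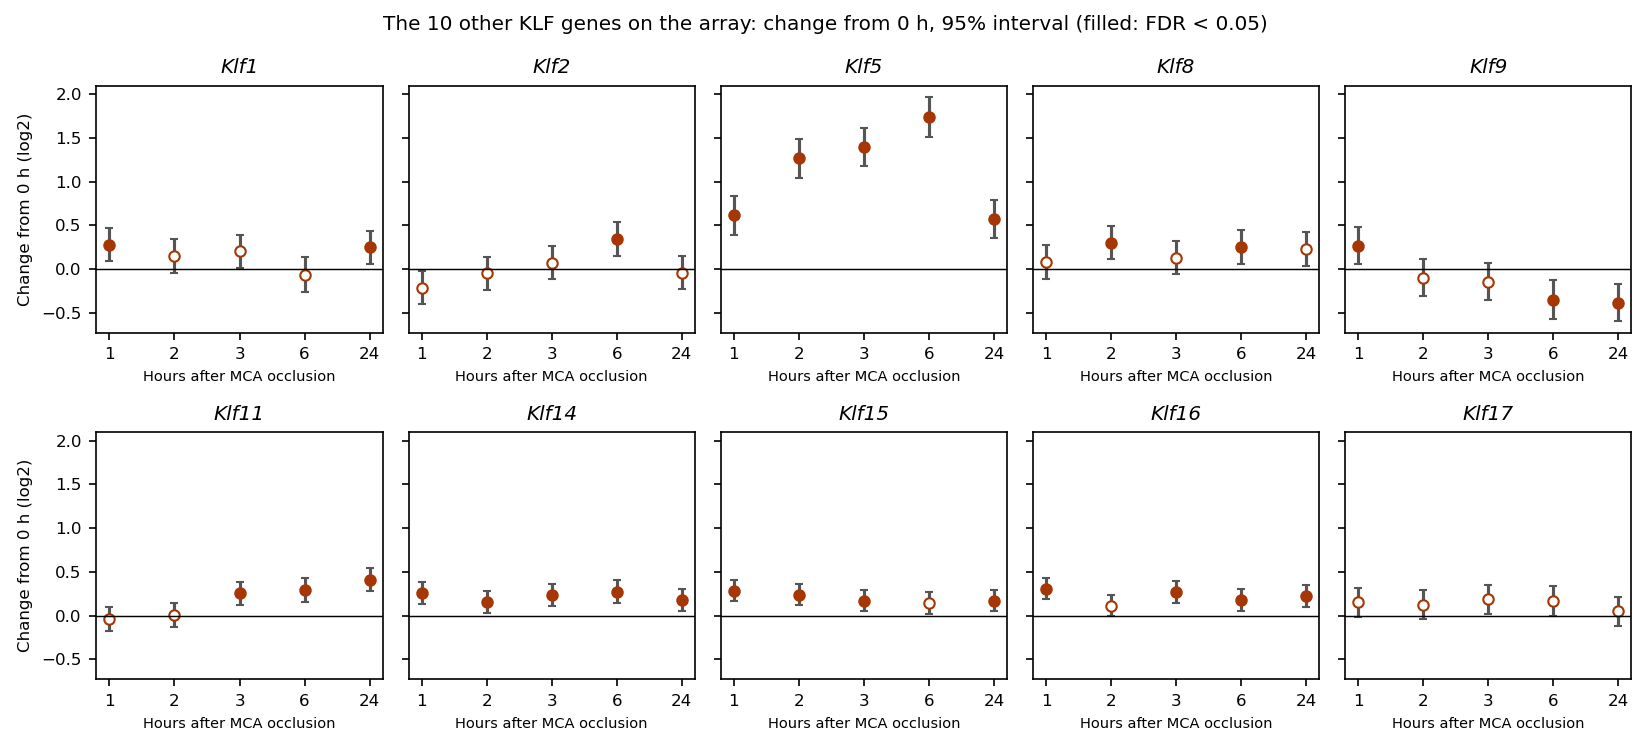
Change from 0 h on the log2 scale (y axis) at 1, 2, 3, 6 and 24 h (x axis, steps not to scale) for the 10 other KLF genes on the array, with bars for the 95% interval of the moderated fit; filled points passed an FDR below 0.05. Klf5 rises to 1.74 at 6 h, and every other gene stays within 0.41 of its 0 h level.

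The Sp factors share the zinc finger domain and the GC-rich target sites of the KLFs. All 9 were on the array, and at 2 h 4 rose and 1 fell, with a median change of 0.08 against 0.05 for all probe sets. Among all probe sets, 21.7% rose and 18.6% fell at 2 h. Of the list's 23 calls over the 5 time points, 6 were lost after centring of the means and 3 after quantile normalization. Sp2 rose by 0.35 at 2 h (FDR 5.21e-06) and Sp4 fell by 0.34 at 1 and 2 h (FDR 1.90e-06 at 2 h). Sp1, the founding factor of the group, did not pass at any time point, with changes from -0.10 to 0.01.

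Genes for the cofactors that KLF proteins recruit moved in both directions. Of 9 on the array, 5 fell and 1 rose at 1 h, and 4 fell and 2 rose at 2 h, with median changes of -0.27 and -0.19. Among all probe sets, 15.4% fell and 21.7% rose at 1 h, and 18.6% fell and 21.7% rose at 2 h. At 3, 6 and 24 h the numbers of the list that fell were 4, 3 and 3, against 19.2%, 19.3% and 13.9% of all probe sets. The histone deacetylases Hdac1, Hdac2 and Hdac3 fell at 1 h, by 0.54, 0.54 and 0.40. Sin3a, the scaffold of the complex that Klf10 and Klf13 bind, fell at all 5 time points, by 0.22 to 0.36. Ctbp2, a corepressor of Klf3 and Klf12, fell by 0.32 at 1 h (FDR 0.00165) and was not called later. Ctbp1 was not called at any time point. The acetyltransferase Kat2b rose at all 5, by 0.27 to 0.42.

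Genes of lymphocyte homing that are linked to Klf2 and Klf3 moved in both directions. S1pr1, the receptor by which lymphocytes leave lymphoid tissue, and Ccr7, the receptor by which they enter lymph nodes, fell at all 5 time points. S1pr1 fell by 0.82 at 2 h (FDR 5.51e-07) and Ccr7 by 1.29 at 6 h (FDR 1.78e-13). Itgb7, an integrin subunit of gut homing that Klf3 is known to restrain in B cells, rose by 0.57 at 2 h (FDR 1.18e-07) and was at 0.19 above 0 h at 24 h (FDR 0.0701).

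In the TGF-beta pathway, which induces Klf10, the receptor subunits moved apart. Tgfbr1 rose at all 5 time points, by 1.50 at 6 h (FDR 1.26e-15), the time of the Klf10 maximum. Tgfbr2 fell at all 5, by 0.90 at 3 h (FDR 2.69e-05), and the signal transducer Smad2 fell by 0.48 at 6 h (FDR 3.16e-07). Of the 9 genes of the list, 1 rose at each later time point, always Tgfbr1, and 4, 5, 5, 3 and 5 fell. Among all probe sets, 17.4% to 27.3% rose, and 15.4%, 18.6%, 19.2%, 19.3% and 13.9% fell in the same order. The median change of the list was -0.14 at 1 h and -0.21 at 2 h, its lowest. The ligand Tgfb1 fell by 0.29 at 1 h (FDR 0.00347) and Skil, an inhibitor of Smad signalling, by 0.44 at 1 h (FDR 3.84e-06). Klf5, which is not in this list, was also highest at 6 h. A part of the pathway in the Klf10 rise was not tested.

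Marker genes of lymphocytes and neutrophils also changed over the time course. The shares of all probe sets called at each time point are those given for the members above. All 6 B cell markers and all 6 T cell markers fell at all 5 time points. Over the 5 later time points the B cell list had median changes of -1.50, -2.04, -2.13, -1.76 and -0.53, with Ms4a1, Cd79b and Cd79a falling most. For the T cell list they were -0.45, -0.85, -0.97, -1.14 and -0.72. The mean log2 level of the list was 10.1 at 0 h and 8.02 at 3 h for B cells, and 9.51 at 0 h and 8.46 at 6 h for T cells.

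Neutrophil markers rose, 7 of 7 at 1 and 2 h and 6 of 7 at 3, 6 and 24 h, with Ngp falling at 24 h. Their median change was 0.84, 1.33, 1.31, 1.59 and 0.78, and their mean log2 level 10.7 at 0 h and 12.2 at 2 h. Of the 6 monocyte markers, 4 fell and 1 rose at 1 h, with a median change of -0.50, and 3 rose and 3 fell at 2, 3 and 6 h. At 24 h 3 fell, and the other 3 did not pass. Csf1r and Cx3cr1 fell at all 5 time points, by 1.05 and 1.35 at 6 h, while Cd14 rose by 1.84 at 3 h. Of 5 NK cell markers, 1 fell at 1 h, 3 at 2 and 3 h and 4 at 6 and 24 h, while Ncr1 rose by 0.24 at 1 h (FDR 0.0335), 0.22 at 2 h and 0.34 at 6 h.

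Platelet markers rose for 2 of 5 at 1 h and 3 of 5 at 24 h, with medians of 0.22 and 0.26, but of the list's 7 calls over the 5 time points 4 were lost after centring of the means and 3 after quantile normalization. Of 6 erythroid markers, 3 rose at 1 and 24 h, 1 rose at 3 h and 2 fell at 6 h. Klf1, a KLF gene counted above, was 1 of the 3 at 1 and at 24 h, and 2 of the list's 9 calls were lost under either scaling. No marker had a mean log2 level of 0, the lowest being 6.96 for a B cell marker at 2 h. The low points of Klf4, at 2 h, and of Klf12, at 3 h, fell within the hours at which the B cell markers were lowest. The Klf6 and Klf10 maxima at 6 h fell on the highest median change of the neutrophil list. The mean level of that list was highest at 2 h, the time of the Klf7 and Klf13 maxima. The T cell median was lowest at 6 h. The monocyte median was lowest at 1 h (-0.50), when Klf4 was already at -1.10, whereas the monocyte marker Cx3cr1 was lowest at 3 h (-1.45). The part of these shifts in the changes of the KLF genes was not tested.

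**Figure D4:**
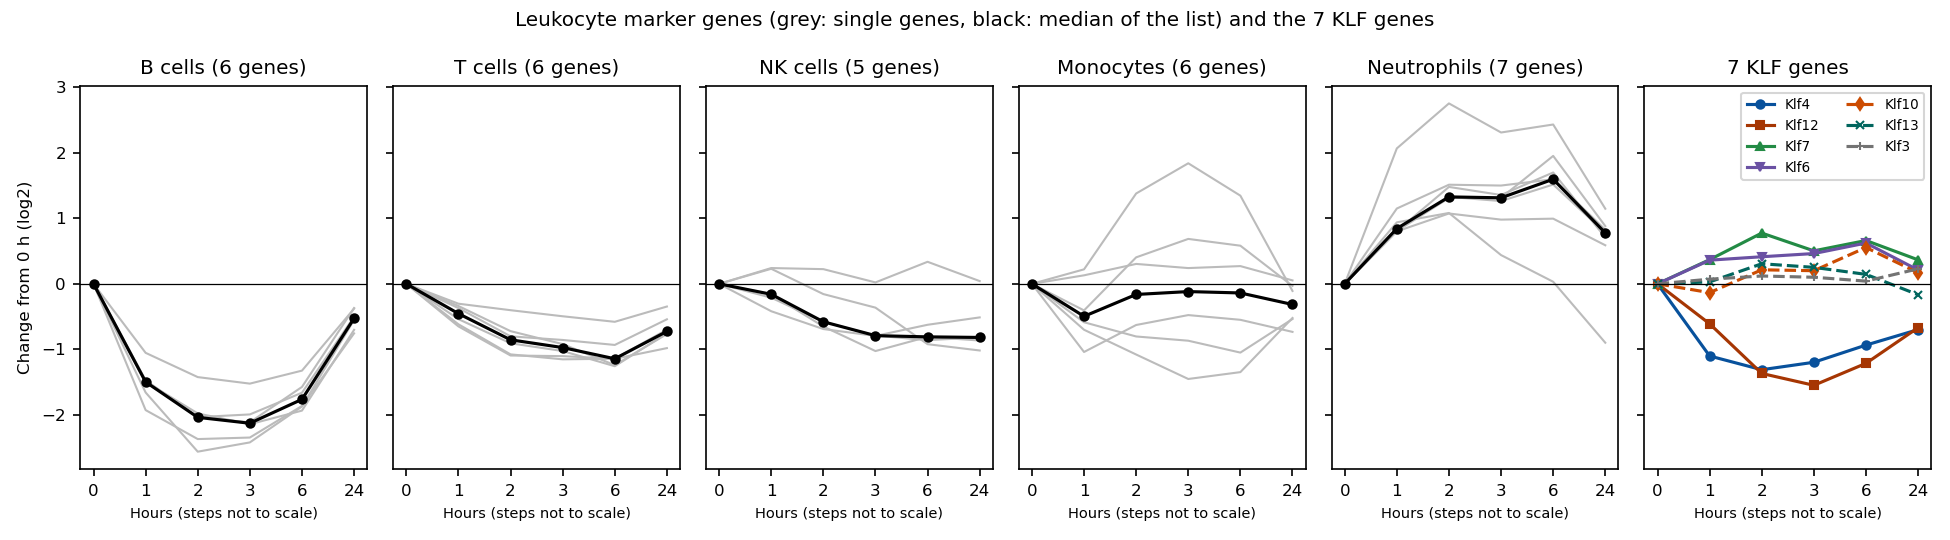
Change from 0 h on the log2 scale (y axis) over 0, 1, 2, 3, 6 and 24 h (x axis, steps not to scale) of the markers of 5 leukocyte types (grey lines single genes, black points their median) and, in the last panel, of the 7 KLF genes. The B cell median reaches -2.13 at 3 h and the neutrophil median 1.59 at 6 h, and the KLF changes lie between both medians from 1 to 6 h. At 24 h Klf4 (-0.70) and Klf12 (-0.67) lie below the B cell median of -0.53.

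For each member, the genes nearest in course were sought among 12091 probe sets with 1 gene symbol and an F-test FDR below 0.05, by the root mean square difference of the 5 log2 changes from 0 h. Those of Klf12 were LOC102554102 (0.067) and Cd24 (0.092), a surface protein of B cells and neutrophils, whose change at 3 h was -1.50. Those of Klf4 were Utp18 (0.10), a factor of ribosomal RNA processing, and Calhm2 (0.10), an ion channel subunit, with changes of -1.24 and -1.23 at 2 h.

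For the rising members the differences were smaller, as the changes themselves were. Nearest to Klf6 were Mir152 (0.043) and Btnl8 (0.053), and nearest to Klf7 were Sema4f (0.042) and LOC100361388 (0.049). Klf10 was nearest to Ceacam18 (0.060) and to the immediate early gene Ier5 (0.066), which was at 0.59 above 0 h at 6 h. Klf13 was nearest to Mapkapk2 (0.059), a kinase downstream of p38 with changes of 0.32 at 3 h and -0.23 at 24 h, and to Fbxo4 (0.060). Klf3 was nearest to Glt1d1 and Gpr139 (0.031 and 0.032). These pairs describe likeness over 5 time points that share 1 baseline.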

How the data were processed

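Blood RNA of 8 SHR was measured on 47 Affymetrix RaGene 1.0 ST arrays at 6 time points. The deposited table gives, per the file headers, the log2 RMA signal of 27596 probe sets, which the authors averaged over the arrays of each time point, with the SD on the same log2 scale, annotated on rn5. RMA normalizes between arrays, so a shift shared by all genes would be removed. The software version is not given in the sources used here. The table also has 47 columns of single arrays, whose names, running numbers, match no label of a rat or time and which were not assigned by their order or values, and 19 columns of the authors' own comparisons (fold changes, p-values, FDRs and F statistics). Neither kind was used. The model planned for single arrays was therefore fitted to the authors' means and SDs with the number of arrays (limma 3.58.1 in R 4.3.3, residual df 41, prior df 5.71). Arrays were taken as independent. The fit was also tested on simulated data, but no result of that test is given here. It does not stand in for a fit with the rat as a block. Precision is limited by the 7 or 8 arrays per time point. RNA was prepared in 6 randomized batches, which the labels do not assign, so batch was not tested.

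The members, the lists and the cell type markers were chosen with earlier results of these data known. Genes to name were chosen from the 7 members, the other KLF genes, the 2 nearest genes of each member, and in each list those with the largest changes, at most 3, and not all of these are named in the text; Sp1, Sin3a, Ctbp1, Ctbp2, Kat2b, Tgfb1, Skil, Ncr1 and Ngp were added after their values were seen. The results of 2 listed genes are not reported by name here. Alternatives were no moderation of the variance, an intensity trend with robust prior, the variance of the compared time points only, centring of the means on their median, quantile normalization of the means, leaving out the dimmest 25% of probe sets, leaving out the 24 h samples, and for the F-test an unadjusted p below 5e-07. Promoters come from a RefSeq table on GRCr8, searched by pattern on both strands.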

Additional observations from a re-analysis of the deposited data

How the results depend on the processing

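No paired analysis was possible because the names of the single-array columns carry no rat number. Their running numbers have 1 gap, as there is 1 missing sample, but their order was not used to assign them to rats, so the fit with the rat as a block was not run, and no single rat was left out. Each member had 1 probe set, so another choice of probe set gave no value. Counting all changes of the members and the largest change from 0 h of the other KLF genes, of the nearest genes and of up to 3 genes per pathway list, 701 kept their direction and their side of the threshold under an alternative, 17 lost a call, 2 gained one and 2 changed sign. Those that changed sign were not called: Klf13 at 1 h after centring of the means (-0.019) and Klf3 from 2 to 3 h after quantile normalization of the means (0.015). With the variance of the compared time points only, the probe sets called from 2 to 3 h went from 973 to 387, from 3 to 6 h from 1319 to 326, with 1 member called in place of 2, and from 6 to 24 h from 5211 to 3364. The F-test called 15302 probe sets at an FDR below 0.05 and 3717 at an unadjusted p below 5e-07. The other 133 counts stayed within 1.5 times. How far dim probe sets stood above background could not be judged from means, which limits what they can show.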
